A study of Mus musculus with 23 samples.

Results

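Foxf1, Angptl7, Inmt, Masp1, Rarres1 and Prune2 are 6 genes whose signal was higher in tumour cells sorted after 21 days of nintedanib than in tumour cells sorted after 7 days. They were picked from that difference, among the 19938 genes measured, and all 6 were measured in all 23 arrays. The difference between 21 and 7 days in tumour cells is therefore given as a description and is no evidence of its own. Levels are log2 signals, so that 1 unit is a doubling.

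The cells came from tumours of Py2T, a single murine breast cancer cell line, grown in the mammary fat pad of female FVB/N mice and sorted by flow cytometry. Nintedanib is a kinase inhibitor of the VEGF, FGF and PDGF receptors and was given at 50 mg per kg body weight. The tumour cell groups are untreated (n = 3 arrays), 7 days of nintedanib (n = 4) and 21 days of nintedanib (n = 5). The groups of tumour vessel endothelial cells are untreated (n = 3), 7 days (n = 3) and 21 days (n = 5). Untreated mice bore tumours of the size that long-term tumours had, and no untreated tumours of 7-day size were analysed here. Samples are labelled as biological replicates, and where they did not come from separate mice the errors cover only the spread between samples. Signals are relative to the rest of each array, because the normalization removes differences in total RNA. Within a group the arrays correlated across genes at 0.983 or higher in tumour cells and at 0.935 or higher in endothelial cells.

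The genes have no common pathway, and their products are of different kinds. FOXF1 is a forkhead transcription factor of embryonic mesenchyme and of the lung, induced there by hedgehog signalling. ANGPTL7 is a secreted protein of the angiopoietin-like family, best studied in the cornea and in the outflow tissue of the eye, and MASP1 is a serine protease that starts the lectin pathway of complement. INMT methylates tryptamine and related amines with S-adenosylmethionine as donor and is abundant in lung. RARRES1 is a membrane protein first found as a product of retinoid treatment of human skin cells, related to the carboxypeptidase inhibitor latexin, and its gene is often silenced in human cancers. PRUNE2 carries a BCH domain, also found in BNIP2, and in human its gene hosts the prostate cancer RNA PCA3 in an intron.

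RefSeq promoter windows (GRCm38.p6, 250 bases before to 50 after the annotated start) were available for 4 of the 6 genes, and they are shown because the genes were higher together at 21 days. Motifs were searched on both strands: the TATA box TATAAA, the CCAAT box, the GC box GGGCGG, the hypoxia element core ACGTG, the E-box CANNTG, the AP-1 site TGACTCA, the forkhead site TGTTTAC and the nuclear receptor half-site AGGTCA. The E-box letters can overlap the hypoxia letters. Capitals mark every match. The windows lie at chr6:55174941-55175240 (minus strand), chr4:148500413-148500712 (minus strand), chr3:67515474-67515773 (minus strand) and chr19:16955868-16956167 (plus strand).
Inmt: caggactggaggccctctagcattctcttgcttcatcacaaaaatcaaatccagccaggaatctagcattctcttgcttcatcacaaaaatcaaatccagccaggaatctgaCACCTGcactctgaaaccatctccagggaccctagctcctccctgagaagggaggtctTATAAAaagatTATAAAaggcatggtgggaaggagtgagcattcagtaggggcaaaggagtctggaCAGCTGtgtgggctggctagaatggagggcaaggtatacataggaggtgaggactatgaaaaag
Angptl7: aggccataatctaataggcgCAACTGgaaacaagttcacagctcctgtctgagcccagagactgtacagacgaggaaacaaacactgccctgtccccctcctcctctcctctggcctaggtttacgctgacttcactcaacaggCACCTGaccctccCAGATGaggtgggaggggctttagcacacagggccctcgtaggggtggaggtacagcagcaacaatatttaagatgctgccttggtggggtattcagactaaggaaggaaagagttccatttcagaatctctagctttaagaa
Rarres1: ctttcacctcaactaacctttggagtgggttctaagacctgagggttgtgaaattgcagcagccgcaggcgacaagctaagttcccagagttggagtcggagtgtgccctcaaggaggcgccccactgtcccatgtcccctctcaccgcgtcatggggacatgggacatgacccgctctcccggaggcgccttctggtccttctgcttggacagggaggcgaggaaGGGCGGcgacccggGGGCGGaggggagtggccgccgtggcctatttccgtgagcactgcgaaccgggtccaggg
Prune2: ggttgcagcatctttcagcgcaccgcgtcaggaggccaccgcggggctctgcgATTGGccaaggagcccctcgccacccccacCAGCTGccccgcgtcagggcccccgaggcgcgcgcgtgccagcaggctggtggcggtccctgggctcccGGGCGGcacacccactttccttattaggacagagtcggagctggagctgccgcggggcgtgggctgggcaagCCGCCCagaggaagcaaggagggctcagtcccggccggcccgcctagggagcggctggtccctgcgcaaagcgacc
The 4 windows were of different kinds. Those of Prune2 and Rarres1 were rich in GC, at 72.7% and 63.3%, with 28 and 19 CpG dinucleotides, against a median of 52.7% and 7 over all 32851 windows. Inmt had 47.7% GC and 0 CpG, and Angptl7 51.3% and 4. Inmt held TATAAA at positions -80 and -69 relative to the start, a motif found in 13.6% of all windows, and a stretch of 46 bases beginning at -235 that is repeated without change at -189. Rarres1 and Prune2 each held the GC box GGGCGG in 2 places, as do 35.7% of all windows at least once. The E-box letters CANNTG were found in Inmt, Angptl7 and Prune2, and in 72.3% of all windows. The forkhead, AP-1, half-site and hypoxia letters, which 3.6%, 5.2%, 16.3% and 19.6% of all windows hold, had no match in these 4. CCAAT, in 37.4% of all windows, matched Prune2 alone among them. No motif of the search was shared by all 4 windows.

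All 6 genes had their highest mean level in 21-day tumour cells among the 6 groups. For Foxf1, Inmt, Masp1, Rarres1 and Prune2 every 21-day array was above every array of the next group in the order. The next group was not always another tumour group, and 1 endothelial array of the 21-day group, at 7.47, lay inside the 21-day tumour range of Foxf1. For Angptl7 the 21-day and the untreated tumour cells overlapped, while its 21-day arrays were above those of every other group.

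**Figure D1:**
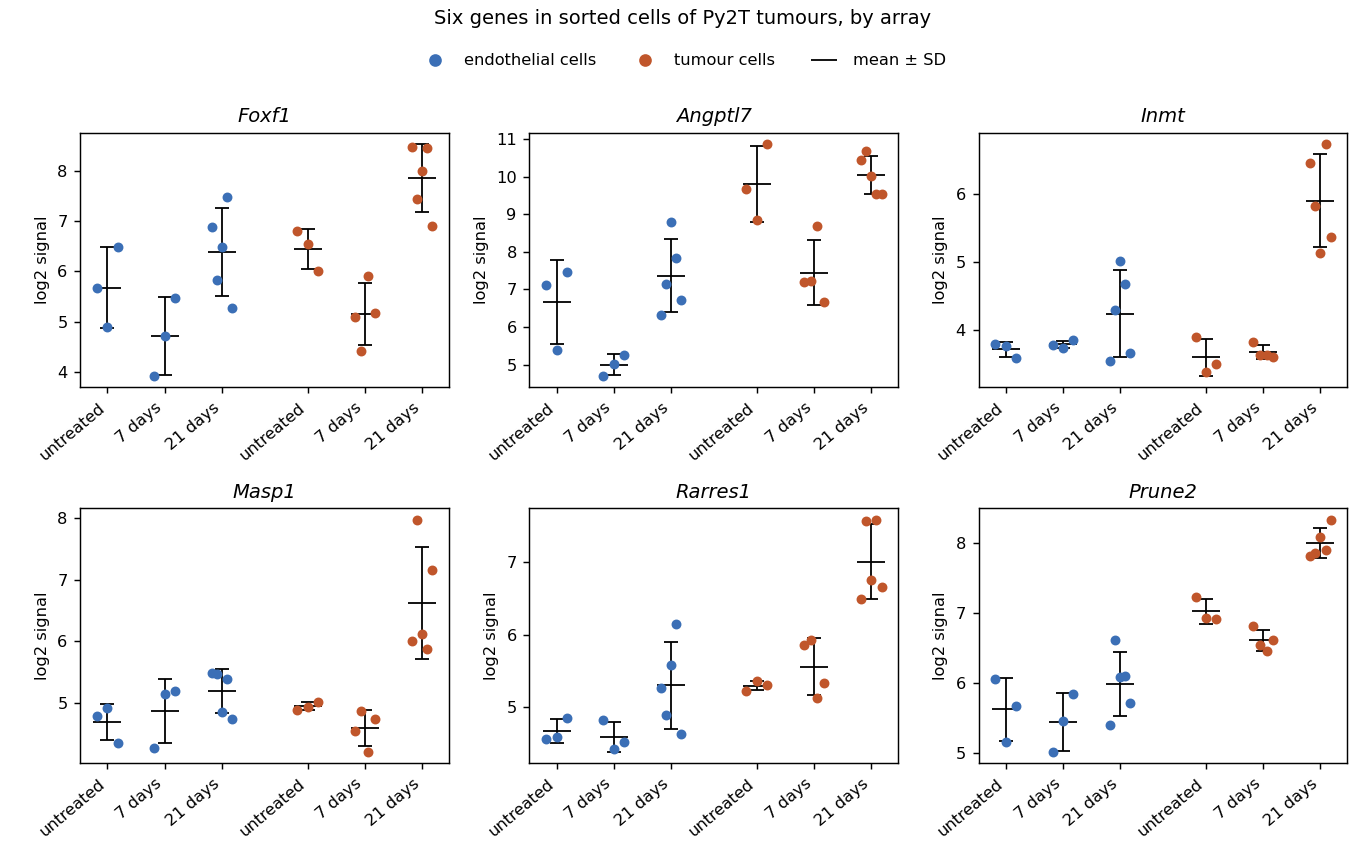
Log2 signal of each of the 6 genes (y axis) in every array, by cell type and treatment (x axis), with the mean and SD of each group in black. The mean of the 21-day tumour cells is highest in every panel. For Angptl7 the untreated tumour cells reach the same range and hold the highest single array, at 10.87.

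Foxf1 had log2 levels of 8.47, 7.44, 7.99, 8.45 and 6.90 in 21-day tumour cells, against 5.09, 4.42, 5.91 and 5.18 in 7-day tumour cells. The untreated tumour cells had 6.80, 6.54 and 6.005, so they lay between the treated groups and overlapped neither. The mean was 2.70 ± 0.35 log2 units higher at 21 than at 7 days (SE, n = 5 and 4), a 6.49-fold difference and the 2nd largest rise of all genes. The array has another probe cluster for Foxf1, with a smaller difference of 1.73 between 21 and 7 days. On that cluster the 7-day mean was -0.24 log2 units from the untreated mean, against -1.29 on the cluster used here, so the probes disagree on how far Foxf1 was lower at 7 days.

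Angptl7 was at 10.44, 10.69, 10.01, 9.54 and 9.55 in 21-day tumour cells, against 7.19, 7.23, 8.68 and 6.67 in 7-day tumour cells. Untreated tumour cells had 9.67, 8.86 and 10.87. The 7-day arrays were thus apart from both other groups, which overlapped. The 7-day mean was -2.36 ± 0.51 log2 units from the untreated one (SE, n = 4 and 3), the most negative of all 19938 differences in that comparison. The 21-day mean was 2.60 ± 0.45 above the 7-day mean and 0.24 ± 0.49 from the untreated mean.

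Masp1 had levels of 5.996, 7.97, 6.12, 5.87 and 7.15 in 21-day tumour cells, against 4.53, 4.87, 4.20 and 4.74 in 7-day tumour cells. The 3 untreated arrays, at 4.88, 4.93 and 5.02, were just above the highest 7-day array. The 21-day mean was 2.04 ± 0.37 above the 7-day mean and 1.68 ± 0.40 above the untreated mean. Its 21-day SD of 0.91 was the widest of the 6 genes, with 2 of the 5 arrays well above the other 3. The gene also encodes the splice products MASP-3 and MAp44, and the single level given here does not separate them.

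Inmt stood at 6.46, 5.83, 5.13, 6.74 and 5.37 in 21-day tumour cells, against 3.82, 3.63, 3.64 and 3.61 in 7-day tumour cells. Untreated tumour cells had 3.90, 3.38 and 3.502, and overlapped the 7-day cells. All 21-day arrays were more than 1 log2 unit above every other tumour cell array. The mean rise was 2.23 ± 0.28 against 7 days and 2.31 ± 0.31 against untreated cells, where it was the 3rd largest of all genes. The data hold no detection calls, so whether the low values were above background is not known.

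Rarres1 had levels of 6.49, 7.57, 6.76, 7.59 and 6.66 in 21-day tumour cells, against 5.86, 5.93, 5.12 and 5.33 in 7-day tumour cells. In untreated tumour cells it was at 5.22, 5.35 and 5.30, inside the 7-day range. The 21-day mean was 1.45 ± 0.25 above the 7-day mean and 1.72 ± 0.27 above the untreated mean.

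Prune2 had the smallest spread at 21 days of the 6 genes, with an SD of 0.21, at 7.81, 7.84, 8.08, 7.89 and 8.32 in 21-day tumour cells, against 6.82, 6.54, 6.46 and 6.61 in 7-day tumour cells. Untreated tumour cells, at 7.22, 6.93 and 6.91, fell between the treated groups without overlap. The differences were 1.38 ± 0.12 between 21 and 7 days, 0.97 ± 0.13 between 21 days and untreated and -0.41 ± 0.13 between 7 days and untreated. Another probe cluster of Prune2 gave 1.28, 0.96 and -0.32 for the same differences.

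The choice of these genes used the 21-day and 7-day tumour arrays, and the comparisons of either group with untreated tumour cells share those arrays. The counts that follow are descriptions for that reason. Between 21 and 7 days all 6 genes were past an adjusted p of 0.05 as higher in limma's fit over all genes, where 0.622% of genes were, and the arrays of all 6 were above without overlap, as were those of 2.94%. Without 7-day replicate 4 the count was 3, Foxf1, Inmt and Prune2, and without 7-day replicate 1, 2 or 3 it was 4, 5 or 4. Over all genes, in either direction, the count also fell, from 243 to 95 without replicate 4. Without replicate 1, 2 or 3 it was 122, 130 or 119. Between 21 days and untreated cells Inmt, Rarres1 and Prune2 were past it, where 0.0752% of genes were, and 5 genes did not overlap, as 2.99% of genes did not in that direction. All but Angptl7 had an unadjusted p under 0.05, against 10.1% of all genes. The count past the adjusted threshold was 0 without untreated replicate 2 or without untreated replicate 3, where the count over all genes was 5 each time, against 18. Rarres1 (limma adjusted p = 0.0397) was past it with every array, but not when any single tumour array except 21-day replicate 1 was left out. Inmt and Prune2 stayed past it except without untreated replicate 2 or 3. Between 7 days and untreated cells 0 genes of the 6 were past it in limma's fit, where 0.507% of genes were, and 3 had an unadjusted p under 0.05, against 11% of all genes. Without 7-day replicate 3 the count was 1, Angptl7, while that over all genes was 57, against 101 with every array. In that comparison the arrays of Foxf1, Angptl7, Masp1 and Prune2 lay below the untreated ones without overlap, as did those of 4.9% of all genes.

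**Figure D2:**
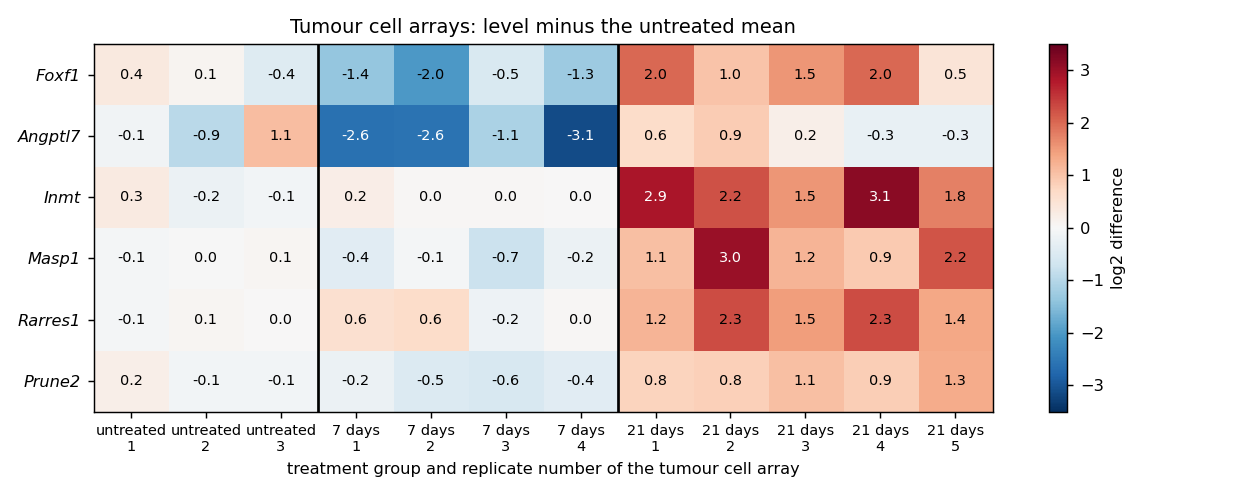
Level of each gene (rows) in each of the 12 tumour cell arrays (columns), as the log2 difference from the mean of the 3 untreated arrays, by colour and printed value. The 7-day arrays are blue for Foxf1 and Angptl7 and near white for Inmt, and the 21-day arrays are red for every gene but Angptl7.

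The genes differed in the pattern of their means over untreated, 7-day and 21-day tumour cells. Untreated tumours had the size of long-term ones, so this order of the groups is not a time course. Mean levels of Angptl7 were 9.80, 7.44 and 10.04, and those of Foxf1 6.45, 5.15 and 7.85. The other probe cluster of Foxf1 had means of 5.79, 5.55 and 7.28, with a smaller fall at 7 days. Mean levels of Inmt were 3.60, 3.67 and 5.91, and those of Rarres1 5.29, 5.56 and 7.01. Masp1, at 4.94, 4.59 and 6.62, and Prune2, at 7.02, 6.61 and 7.99, were a little lower at 7 days and above the untreated cells at 21 days.

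Within the 21-day group the genes did not rank the arrays alike. Masp1 was highest in replicates 2 and 5, at 7.97 and 7.15, the 2 arrays in which Foxf1 was lowest, at 7.44 and 6.90. Inmt and Foxf1 were both high in replicates 1 and 4. C1s1, the C1s protease gene of the classical complement pathway, was highest in the same arrays as Masp1, at 6.39 in replicate 2 and 6.38 in replicate 5, against 4.86 to 5.55 in the other 3. Over the 12 tumour arrays, which share the group differences the genes were chosen for, the 15 pairs of genes had Pearson correlations between 0.41 and 0.89. After each group's mean was subtracted the same pairs ran from -0.74 to 0.54. The highest of the first set, 0.89, was between Inmt and Rarres1, and the lowest of the second was between Foxf1 and Masp1.

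The genes whose levels followed each of the 6 most closely over the 12 tumour arrays were different ones for each gene but for Saa3, which was among the 3 closest of both Masp1 and Rarres1. For Angptl7 the highest correlation was 0.97, with Mme, the gene of the membrane peptidase neprilysin, at means of 10.66, 9.81 and 10.70 in untreated, 7-day and 21-day cells. Tgfbr3 (0.94) and Gas1 (0.93), the genes of a TGF-beta co-receptor and of a hedgehog co-receptor, came next. Masp1 went with the acute phase genes Saa1 (0.93) and Saa3 (0.92) and with Ankrd1 (0.93). Rarres1 went with Anp32e (0.96), Saa3 (0.96) and the oxidoreductase gene Ero1a (0.93). Inmt went with Peli2, Clspn and Nectin2, all at 0.94, Prune2 with Dixdc1 (0.96), Osbpl1a (0.93) and Nudt9 (0.93), and Foxf1 with Rgl1 (0.93), Nek2 (0.93) and Phactr1 (0.92). Over the 11 endothelial arrays, whose values did not choose the genes, Angptl7 had correlations of 0.92 with Mme, 0.68 with Gas1 and -0.04 with Tgfbr3. Over the same arrays Rarres1 had 0.65 with Ero1a, 0.50 with Saa3 and 0.33 with Anp32e, and Masp1 0.40 with Saa1, 0.30 with Ankrd1 and 0.03 with Saa3. The genes closest to Inmt were between -0.35 (Peli2) and 0.47 (Clspn), those closest to Prune2 between -0.08 (Osbpl1a) and 0.04 (Dixdc1), and those closest to Foxf1 between 0.22 (Rgl1) and 0.24 (Nek2). These correlations mix group differences with array effects and carry no test.

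The other genes of the same families and pathways were described from fixed lists. Of 62 measured genes on the 6 pathway lists, with the 6 genes themselves left out, 2 were called higher and 0 lower by limma between 21-day and 7-day tumour cells, where 0.622% of all genes were called higher. Positive differences were found for 30 and negative ones for 32 of the 62, and 8 had an unadjusted p under 0.05, against 11.9% of all genes. Both called genes were on the retinoid list, of which 17 genes were measured, with a median difference of -0.01 against -0.00 for all genes. One of them, Lxn, is the gene of latexin, the carboxypeptidase inhibitor related to RARRES1. Crabp1, which codes for a cytosolic binding protein of retinoic acid, was at 11.63 ± 0.38 in 21-day and 9.77 ± 0.53 in 7-day tumour cells (SD, n = 5 and 4), a difference of 1.86 ± 0.30 (SE, limma adjusted p = 0.014), which was not called in 1 fit over all 23 arrays (limma adjusted p = 0.664). Untreated tumour cells had 11.35 ± 0.66 (SD, n = 3), so Crabp1, like Angptl7, was at 21 days in the range of the untreated cells. Lxn, the latexin gene, was at 10.37 ± 0.26 in 21-day and 9.51 ± 0.23 in 7-day tumour cells, a difference of 0.86 ± 0.16 (SE, limma adjusted p = 0.024). Lxn was not called in the fit over all 23 arrays (limma adjusted p = 0.218), and it lost its call when any of 7-day replicates 2, 3 and 4 or 21-day replicates 2 and 3 was left out, with limma adjusted p between 0.0543 and 0.0782 and a difference of 0.80 or more.

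The remaining lists held 0 called genes in limma's comparison of 21-day with 7-day tumour cells. Of 14 hedgehog and forkhead genes 2 had an unadjusted p under 0.05, and Smo, the hedgehog signal transducer, and Foxc2, another forkhead gene, differed by 0.26 ± 0.09 and -0.19 ± 0.20. Of 4 angiopoietin-like genes 2 had an unadjusted p under 0.05, and Angptl4, a gene of lipid metabolism induced by hypoxia, differed by 0.45 ± 0.12 (limma adjusted p = 0.104) and Angptl8 by -0.17 ± 0.09. Of 14 genes of the lectin pathway and its complement partners 0 had an unadjusted p under 0.05, and C1s1 differed by 0.66 ± 0.32 and Fcna, a ficolin gene, by 0.04 ± 0.08. Of 9 small-molecule methyltransferase and methyl donor genes 0 had one, with Gamt at 0.07 ± 0.11 and Mat2b at 0.01 ± 0.09. Of 4 genes related to Prune2 1 had one, with Bnip2 at -0.06 ± 0.12 and Prune1 at 0.28 ± 0.10.

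The neighbouring genes on the chromosome were examined for the same difference. Of the 24 nearest measured neighbours, 2 on either side of each gene in the RefSeq order, 2 were past the adjusted threshold between 21-day and 7-day tumour cells, where 1.22% of all genes were in either direction. These were Lxn, the neighbour of its relative Rarres1, and Rfk, the riboflavin kinase gene 2 places from Prune2, with a difference of 0.70 ± 0.10 (limma adjusted p = 0.00905, and 0.185 in 1 fit over all 23 arrays). Positive differences were found for 17 of the 24 neighbours, with a median of 0.08 against -0.00 for all genes. Aqp1, the water channel gene 2 places from Inmt, was at 10.16 in 21-day and 9.25 in 7-day cells, a difference of 0.90 ± 0.30 that did not pass (limma adjusted p = 0.217). Without 21-day replicate 4 it was 1.17 ± 0.21 (limma adjusted p = 0.0331). Foxc2, 2 places from Foxf1, did not pass either, as given above.

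**Figure D3:**
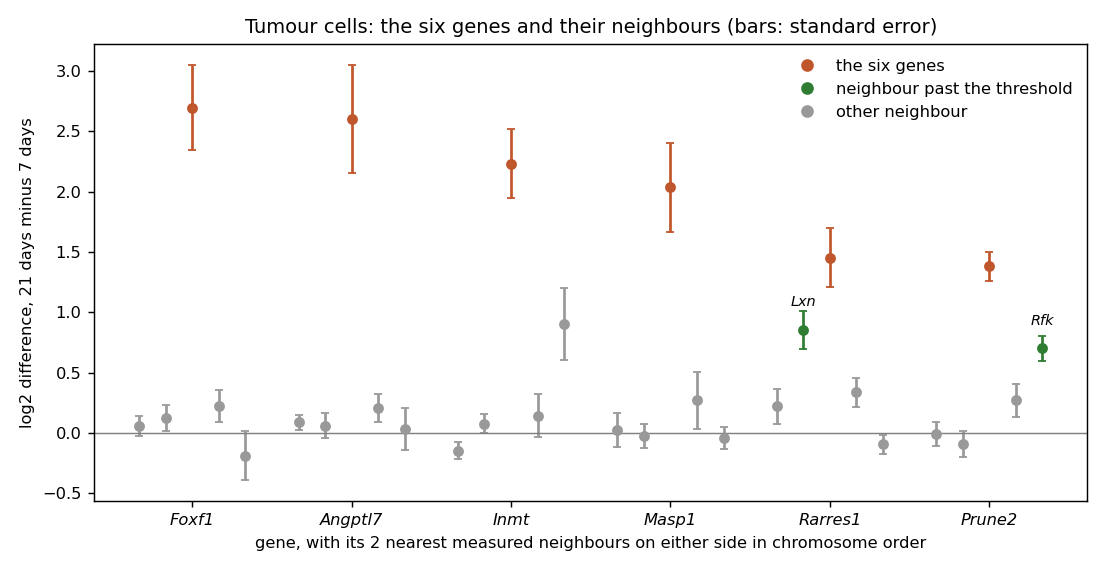
Log2 difference between 21-day and 7-day tumour cells (y axis) with its standard error, for each of the 6 genes and its 2 nearest measured neighbours on either side (x axis, in chromosome order and not to scale). Lxn beside Rarres1 and Rfk near Prune2 are the neighbours past the threshold, and 17 of the 24 differences are positive.

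Markers of other cell types were measured in the same tumour cell arrays, where 1.22% of all genes were called in either direction between 21 and 7 days, 11.9% had an unadjusted p under 0.05 and the median difference was -0.00. The mean of 14 endothelial markers was between 4.01 and 4.18 in 21-day, between 3.84 and 4.12 in 7-day and between 4.06 and 4.16 in untreated tumour cells, against 9.88 or more in every endothelial array. Of these 14 markers 11 had higher and 3 lower means in 21-day than in 7-day tumour cells, with a median difference of 0.08. The keratin genes Krt8 and Krt18 were at 11.49 and 10.58 in 21-day tumour cells, 11.37 and 10.88 in 7-day and 11.37 and 10.93 in untreated tumour cells. Of the 12 epithelial markers 10 had lower means in 21-day than in 7-day tumour cells, with a median difference of -0.19, and the list mean ran from 5.96 to 6.52 in 21-day, from 6.28 to 6.47 in 7-day and from 5.97 to 6.20 in untreated tumour cells. Krt7, another keratin gene, averaged 5.63 in 21-day and 6.70 in 7-day tumour cells, and Cdh1, the E-cadherin gene, 7.59 and 8.18. Epcam, the gene of an epithelial adhesion protein, averaged 4.47 in 21-day tumour cells and 4.71 in 21-day endothelial cells, so it did not set the sorted populations apart. Of 14 fibroblast markers 1 was higher and 2 were lower between 21 and 7 days by limma's adjusted p, with a median of -0.02, and their mean ran from 6.13 to 6.34 in 21-day and from 6.15 to 6.45 in 7-day tumour cells. The one that rose was Pdgfra, a PDGF receptor gene, at 9.89 in 21-day and 8.91 in 7-day cells (0.98 ± 0.16, limma adjusted p = 0.0163), and Col1a1 (-0.59 ± 0.11) and Fbln1 (-1.06 ± 0.12) fell, with limma adjusted p of 0.0234 and 0.00304. Pdgfra was not called without 7-day replicate 2 or 3, nor Col1a1 when any of 6 single arrays was left out, and neither was called in 1 fit over all 23 arrays (limma adjusted p of 0.859 and 0.522). In untreated cells Pdgfra averaged 6.23 in endothelial and 9.58 in tumour cells, and Dcn 11.64 in endothelial and 12.92 in tumour cells. Most of the fibroblast list went the other way. Of its 14 markers 10 had higher and 4 lower means in untreated endothelial than in untreated tumour cells. The median difference was 0.39, against 0.03 for all genes, and Thy1 averaged 7.04 in endothelial and 4.60 in tumour cells. The fibroblast markers Fap and Lum, at 2.95 and 3.69 in 21-day tumour cells, were at 2.89 and 3.71 in 7-day and 2.93 and 3.34 in untreated tumour cells. Macrophage markers had means from 4.64 to 5.15 in 21-day and from 4.20 to 5.06 in 7-day tumour cells, with 0 of 15 called by limma and 4 at an unadjusted p under 0.05. Of these 15 markers 12 had higher means at 21 than at 7 days, with a median difference of 0.29. Means of the pericyte list ran from 4.39 to 4.63 and from 4.53 to 4.63 in the same groups, and those of the adipocyte list from 3.91 to 4.07 and from 3.87 to 4.05. Of the 12 pericyte markers 8 had higher and 4 lower means at 21 than at 7 days, with a median difference of 0.02. Pdgfrb, the other PDGF receptor gene among the markers, averaged 8.06 in 21-day and 9.13 in 7-day tumour cells and was not called. Limma called 0 genes of the pericyte, epithelial, endothelial, adipocyte, lymphocyte and skeletal muscle lists between 21 and 7 days, and 4, 4, 1, 0, 0 and 0 of them had an unadjusted p under 0.05. The part of any of these cells in the levels of the 6 genes was not tested, and in sorted bulk samples more cells that express a gene and more RNA per cell cannot be told apart.

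Endothelial cells give the same contrasts in arrays that the choice of the genes did not use. After 21 days all 6 genes had higher means than after 7 days, but 0 passed the test over all genes in limma, where 0% of genes did, and 3 of the 6 had an unadjusted p under 0.05, against 9.4% of all genes. These were Angptl7, Foxf1 and Rarres1. Angptl7 had 6.33, 7.14, 8.79, 7.84 and 6.73 in 21-day endothelial cells, against 4.70, 5.03 and 5.26 in 7-day endothelial cells. The groups did not overlap, as for 2% of all genes in this direction, and differed by 2.37 ± 0.58 log2 units (SE, n = 5 and 3, limma adjusted p = 0.382). With 1 fit over all 23 arrays the adjusted p was 0.0444. Foxf1 had 6.89, 5.83, 6.48, 7.47 and 5.27 in 21-day and 3.93, 4.73 and 5.48 in 7-day endothelial cells. These groups overlapped in 1 pair of arrays, with a difference of 1.67 ± 0.54 (limma adjusted p = 0.446). Rarres1 differed by 0.72 ± 0.30, Prune2 by 0.54 ± 0.29, Inmt by 0.45 ± 0.30 and Masp1 by 0.32 ± 0.27, with limma adjusted p between 0.509 and 0.718.

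Against untreated endothelial cells, 0 of the 6 genes passed in limma's fit at either time. After 21 days their differences ran from 0.36 ± 0.29 for Prune2 to 0.71 ± 0.54 for Foxf1, each with adjusted p of 1 and with 0 at an unadjusted p under 0.05, where 0% and 4.18% of all genes passed. The value of Angptl7, 0.70 ± 0.58, was 0.34 ± 0.50 without 21-day replicate 3. After 7 days Angptl7 was the 1 gene of the 6 with an unadjusted p under 0.05, against 8.17% of all genes. It had 4.70, 5.03 and 5.26 in 7-day endothelial cells, against 7.13, 5.39 and 7.48 in untreated ones, with no overlap, as for 3.96% of all genes in this direction, and a difference of -1.67 ± 0.65 (SE, n = 3 each, limma adjusted p = 0.595). Foxf1 was at -0.97 ± 0.60, and the other 4 were between -0.18 ± 0.33 and 0.18 ± 0.30.

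**Figure D4:**
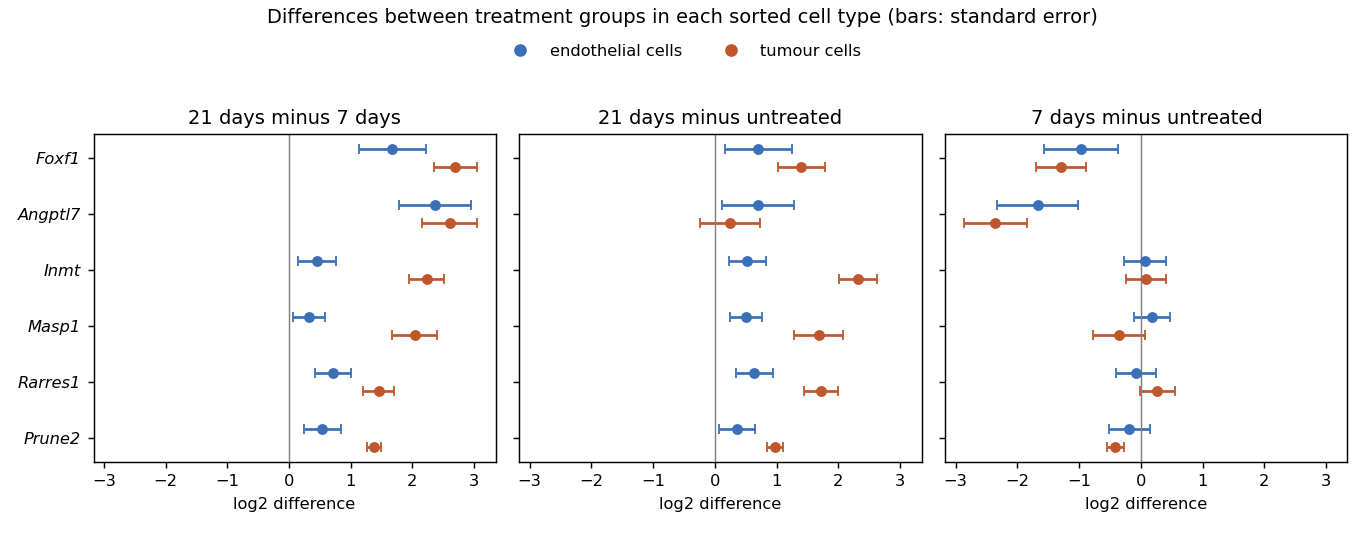
Log2 differences (x axis) of the 6 genes (rows) between treatment groups, in endothelial cells (blue) and tumour cells (orange), with standard errors. Endothelial and tumour values lie close together for Angptl7 between 21 and 7 days, at 2.37 in endothelial and 2.60 in tumour cells, while for Inmt they are 0.45 and 2.23. Whether the cell types differ was not tested, since the tumour values chose the genes.

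The endothelial arrays varied in their level of tumour genes, and several of the 6 genes varied with it. As a measure, the 100 genes with the largest excess in untreated tumour over untreated endothelial cells were averaged in each array, with the 6 genes left out. The untreated arrays chose these 100 genes, so the choice itself can lower the mean in untreated endothelial arrays. Those arrays are also among the 11 of the correlations below. The mean was 5.31, 6.63, 7.25, 6.80 and 6.01 in 21-day endothelial replicates 1 to 5, against 5.91, 5.92 and 5.81 in the 7-day ones, 6.43, 5.20 and 5.82 in the untreated ones and 8.57 or more in every tumour cell array. Inmt was at 3.54, 4.29, 5.02, 4.68 and 3.66 in the same 5 arrays, and so ranked them in the same order. Its correlation with the tumour gene mean over the 11 endothelial arrays was 0.86, with Prune2 at 0.75, Angptl7 at 0.73, Rarres1 at 0.54, Foxf1 at 0.37 and Masp1 at 0.09. Replicate 3 of the 21-day endothelial cells, the highest in tumour genes, was also high in macrophage markers, at 7.76, as was replicate 4, at 7.04. The macrophage list ran from 5.04 to 7.76 in 21-day, from 4.58 to 5.10 in 7-day and from 5.69 to 7.79 in untreated endothelial arrays. All 15 macrophage markers had higher means in 21-day than in 7-day endothelial cells, with a median difference of 1.26 and 0 called by limma (3 at an unadjusted p under 0.05). The macrophage list mean correlated with Angptl7 at 0.79, Inmt at 0.60, Prune2 at 0.53, Foxf1 at 0.47, Rarres1 at 0.42 and Masp1 at -0.02 over the 11 endothelial arrays. The pericyte list mean had correlations from -0.78 (Angptl7) to -0.19 (Rarres1) with the 6 genes. For the adipocyte list they ran from -0.79 (Angptl7) to 0.06 (Masp1), and for the epithelial list from 0.38 (Angptl7) to 0.75 (Inmt). Of the 12 pericyte markers 10 had lower and 2 higher means in 21-day than in 7-day endothelial cells, with a median difference of -0.31. Limma called 0 of them, and 7 had an unadjusted p under 0.05, against 9.4% of all genes. Without 21-day replicate 3 the difference between 21-day and 7-day endothelial cells was 0.26 ± 0.25 for Inmt and 2.01 ± 0.50 for Angptl7. The part of tumour cell RNA, of macrophages or of other cells in the endothelial levels was not tested.

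**Figure D5:**
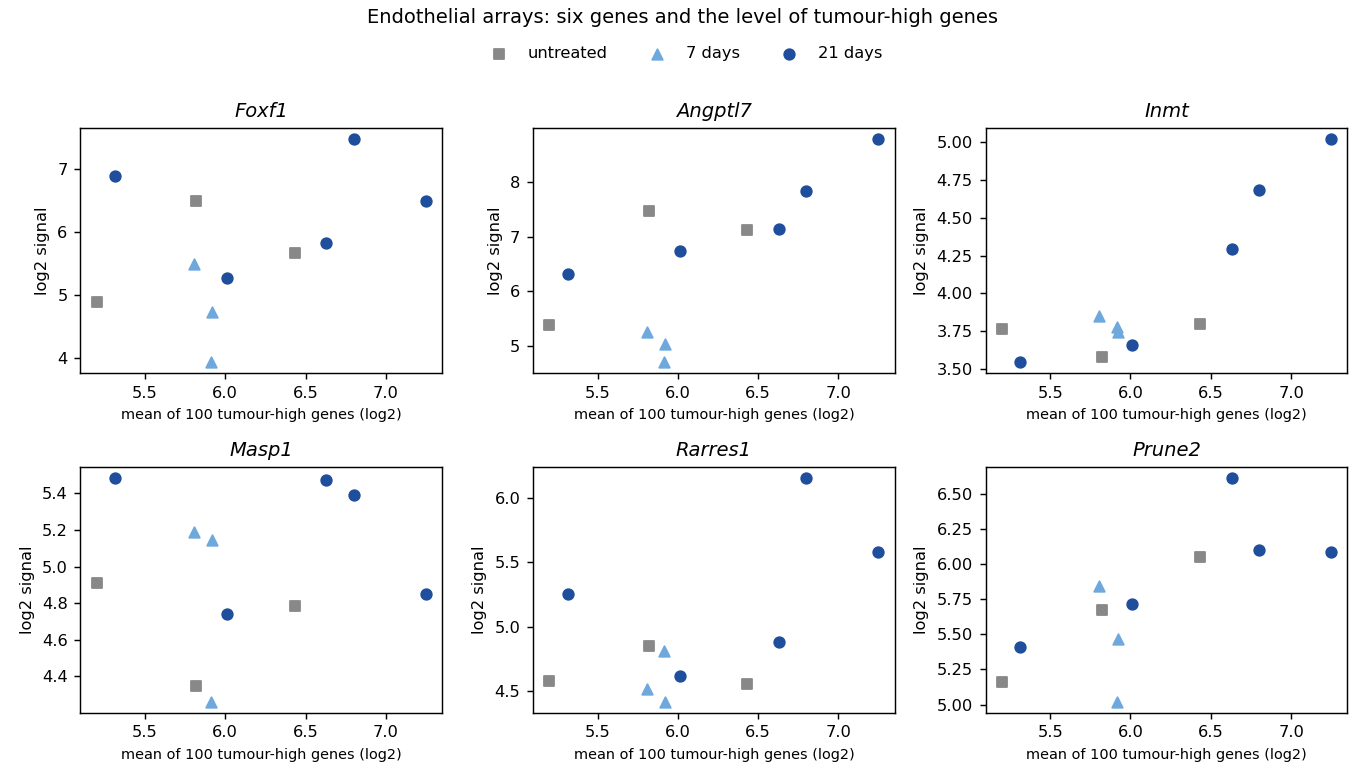
Log2 signal of each gene (y axis) in the 11 endothelial arrays against the mean of 100 genes high in untreated tumour cells (x axis), with treatment groups by symbol. Inmt is flat up to a tumour gene mean of 6.43 and is higher in the 3 arrays above it, while Masp1 shows no such order.

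Untreated cells, which also took no part in the choice, separated the genes by cell type. Angptl7 and Prune2 were lower in untreated endothelial than in untreated tumour cells, and 10.2% of all genes were lower by the same rule. Angptl7 had 7.13, 5.39 and 7.48 in untreated endothelial cells, against 9.67, 8.86 and 10.87 in untreated tumour cells, a difference of -3.13 ± 0.64 log2 units (SE, n = 3 each, limma adjusted p = 0.00135). Prune2 had 6.05, 5.16 and 5.67 in untreated endothelial cells, against 7.22, 6.93 and 6.91 in untreated tumour cells, a difference of -1.39 ± 0.26 (limma adjusted p = 0.000579). Neither pair of groups overlapped, as 18% of all genes did not in this direction. Rarres1, at -0.63 ± 0.33, also separated the groups but did not pass (limma adjusted p = 0.216), and passed in a fit on the 6 untreated arrays alone (limma adjusted p = 0.0184). Foxf1 differed by -0.77 ± 0.55, Masp1 by -0.26 ± 0.41 and Inmt by 0.12 ± 0.36, with overlapping groups and limma adjusted p of 0.38, 0.725 and 0.869.

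Over the 6 groups, the second place after the 21-day tumour cells went to untreated tumour cells for Foxf1, Angptl7 and Prune2, to 7-day tumour cells for Rarres1 and to 21-day endothelial cells for Inmt and Masp1. For Inmt the other 5 groups had means between 3.60 and 4.24, and each overlapped its neighbour in the order. The same held for Masp1, at means between 4.59 and 5.19. For Angptl7 the order ran from 21-day tumour cells (10.04) over untreated tumour cells (9.80), 7-day tumour cells (7.44), 21-day endothelial cells (7.36) and untreated endothelial cells (6.67) to 7-day endothelial cells (4.998), and the ranges of neighbours were apart between the second and the third and between the fifth and the sixth.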

How the data were processed

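The measurements are 1 expression array per sample of RNA from sorted tumour and endothelial cells, 23 in all. Each transcript cluster has a deposited log2 signal, made by the authors with RMA (background correction, quantile normalization and probe summary) and the oligo package, per the submitters' processing notes. The sources used here give no versions, genome build or array dates. Of 35556 clusters 21789 named 1 gene in the platform annotation, 1621 named several and were left out, and 12146 were unnamed. Symbols were updated through gene IDs in the RefSeq table (GRCm38.p6), which held 21698 of these clusters. For each of 19938 genes the cluster of highest average signal was kept, and dim genes were not filtered.

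Tests used limma 3.58.1 in R 4.3.3, with the 12 tumour arrays in 1 fit, the 11 endothelial arrays in another, and all 23 arrays for the untreated cell types. P-values were two-sided and Benjamini-Hochberg adjusted over all genes of a comparison, with calls under 0.05. Errors beside differences are standard errors of these fits. The labels call samples of a group biological replicates, and the number of arrays, 3 to 5, limits the precision. The script was tested on simulated data, in which 200 genes were changed. The 6 genes, the pathway and marker lists and the tests were chosen with earlier results of these data known. Named genes are the 6, the 3 most correlated genes of each over the tumour arrays (predicted genes and small RNAs left out), and per pathway list the called genes or the 2 with the highest levels. Neighbours on the chromosome and the tumour gene mean were added later. Promoter sequences are RefSeq's.

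Same-numbered arrays showed no clear pairing: the correlations of their deviations from the group means ran from -0.15 to 0.11 in the comparisons made. With 3 to 5 arrays per group this cannot exclude a shared mouse or sort. Alternatives were 1 fit over all 23 arrays (for the untreated cell types, the 6 untreated arrays), dropping genes under the 30th percentile of level, a prior variance that follows level, weights per array, averaging a gene's clusters, a second quantile normalization, centring arrays on their medians, dropping each array in turn, and a replicate block.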

Additional observations from a re-analysis of the deposited data

Results flagged for a closer look

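Among the 45 sets of 4 or 5 arrays examined (levels of the 6 genes and means of the marker lists in each group), 2 had 1 array far from the rest, and chance gives about 1 in 20. Inmt in 7-day tumour cells had 3.82 in replicate 1, against 3.61 to 3.64 in the other 3 arrays. That distance is small beside the 21-day levels of 5.13 and above. The adipocyte marker mean was 4.88 in replicate 1 of the 21-day endothelial cells, against 4.61 to 4.69 in the other 4 arrays. The 6 genes in that array were between 3.54 for Inmt and 6.89 for Foxf1.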

How the results depend on the processing

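The 6 genes called between 21-day and 7-day tumour cells were also 6 under all 8 alternatives that kept every array, and 3 to 6 when single arrays were left out. The 3 called between 21 days and untreated tumour cells were 2 or 3 under 7 alternatives, 0 with the replicate block and 0 to 3 when arrays were left out. Rarres1 was lost with weights per array and with renewed quantile normalization. Prune2 was lost in 1 fit over all 23 arrays and with the mean of its probe clusters. Same-numbered arrays share only a number here, and the block changed no other count of the 6. Between 7 days and untreated tumour cells the count of 0 became 1, Angptl7, without dim genes and with a trend in the prior variance, and was 0 to 1 when arrays were left out, with Angptl7 called without 7-day replicate 3. In endothelial cells the count between 21 and 7 days became 1, Angptl7, in 1 fit over all 23 arrays, which assumes the same spread in both cell types, and that fit called 262 genes in all, against 0. The other endothelial counts stayed at 0, and that of untreated endothelial against tumour cells was 2 or 3. Foxf1 between 7 days and untreated tumour cells was -0.77 with the mean of its probe clusters, against -1.29. Of the endothelial differences between 7 days and untreated, Inmt was -0.012 with renewed quantile normalization, against 0.07, and when single arrays were left out Rarres1 ran from -0.19 to 0.0172 and Prune2 from -0.42 to 0.0289. Angptl7 between 21 days and untreated tumour cells ran from -0.23 to 0.78 when single arrays were left out. Median centring and renewed normalization kept the sign of all differences of the 6 genes that were called. Over all genes the counts moved by more than 1.5 times in several settings: 1 fit over all arrays gave 96 between 21-day and 7-day tumour cells, against 243, 9 between 21 days and untreated, against 18, and 30 between 7 days and untreated, against 101. It also gave 34 and 106 in endothelial cells at 21 and 7 days against untreated, each against 0. Array weights gave 10 and 67 for 21 and 7 days against untreated tumour cells, the trend gave 2 for 21-day against untreated endothelial cells, and the replicate block gave 2 for 21-day against untreated tumour cells. When single arrays were left out the counts ran from 95 to 307, from 5 to 30 and from 23 to 105 in the tumour comparisons of 21 with 7 days, 21 days with untreated and 7 days with untreated. Crabp1, Lxn, Rfk, Pdgfra and Col1a1 were not called in 1 fit over all arrays, with limma adjusted p between 0.185 and 0.859.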
